A study of Mus musculus with 2 samples.

Results

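Meiotic recombination genes are described here in the testis of 8-month-old mice, in 1 wild type library and 1 library from the conditional knockout of Igf2bp1, an mRNA-binding protein. The 9 genes are Spo11, Prdm9, Dmc1, Psmc3ip, Mnd1, Meiob, Spata22, Tex15 and Brca1, taken by their symbols for break formation, strand exchange and repair, out of 31053 genes counted. Their measured levels played no part in that rule. Both libraries are dissociated whole testis run on 10x Genomics droplets, both at 8 months. The labels give the genotypes as Wild type and Igf2bp1 KO, and the series text calls the second a cKO and names 2 mice. The sources used here do not give the Cre line, the cells it acts in, the deleted exons or the strain. With 1 library per genotype the animal, the library and the genotype cannot be told apart: intervals are 95% intervals that cover counting error only, and no p-value is given.

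In meiotic prophase the genome is cut on purpose and mended from the homologous chromosome. SPO11 makes the double-strand breaks, at places marked in mice by the histone methyltransferase PRDM9. DMC1, a recombinase made only in meiosis, coats the resected ends and searches for the homolog with the help of the PSMC3IP (HOP2) and MND1 pair, while MEIOB with SPATA22 binds single-stranded DNA, TEX15 is needed for loading the recombinases, and BRCA1 acts in repair and in silencing of the sex chromosomes. These steps fall in leptotene, zygotene and pachytene spermatocytes, before the spermatid stages.

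Cells were grouped without the recombination genes, which were left out of the genes used for clustering and out of the markers. Each class name stands for likeness to that class by markers, with naming limits chosen once the data had been seen. Spermatogonia numbered 73 wild type and 52 knockout cells, early spermatocytes 73 and 31, late spermatocytes 1224 and 367, round spermatids 1201 and 462, with 1683 and 855 elongating ones. A sub-cluster of 41 and 15 cells between spermatogonia and early spermatocytes is called intermediate. The early class holds a Stra8-high sub-cluster (40 and 21 cells) and a Hormad1-high one (33 and 10 cells). The late class holds a Piwil1-led cluster (242 and 95 cells), whose marker score was highest for early spermatocytes but which passed the limit for late ones, and an Aurka-led cluster (982 and 272 cells). The round class holds an earlier cluster (901 and 376 cells) and a Tnp2-high one (300 and 86 cells).

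The wild type library holds 17362 barcodes and 121257944 UMIs, and the knockout library 17968 barcodes and 98033324 UMIs. They share 106 barcode sequences. Much of both libraries is barcodes of few UMIs that no class name was given to, 63.6% of kept wild type and 42.75% of kept knockout barcodes. Their 4 clusters were set apart by their low depth and by marker scores under the limit of 1. These scores, 0.571 to 0.785, were highest for spermatids and overlap those of some named clusters of greater depth, so the barcodes carry spermatid RNA, and how many of them hold a cell was not tested. Somatic clusters hold 940 and 7594 barcodes. Each gene's level in these empty-like barcodes is given beside its level in cells, and is what is meant below by the level of free RNA. Igf2bp1 stood at 76.7 CPM in wild type and 31.0 CPM in knockout spermatogonia (49 and 13 UMIs). This checks the label only if the counted part of the transcript lies in the deleted part, which the sources used here do not say. CPM here is a gene's UMIs per 1000000 UMIs of a class. Leydig cell RNA ran higher in the knockout germ cells: the 8 Leydig markers summed to between 10.5 and 42.3 CPM in the 5 wild type classes and to between 130 and 442 CPM in the knockout classes. All 26 marker measurements of at least 20 UMIs in those classes were higher in the knockout, with Cyp11a1, Hsd3b1 and Hsd3b6 at 0 in some of the wild type spermatogonia or early spermatocyte sums and Hsd3b1 at 0 in knockout early spermatocytes. Sertoli markers moved the same way, from between 28.2 and 265.5 CPM in the wild type classes to between 73.9 and 384 CPM in the knockout ones. Of their measured markers 1 of 5 was higher in spermatogonia, 1 of 2 in early spermatocytes, 6 of 9 in late spermatocytes, 7 of 7 in round and 7 of 7 in elongating spermatids, and none was lower. Macrophage markers were higher for 3 of 4 measured in late spermatocytes, 3 of 5 in round and 2 of 3 in elongating spermatids. The part of this RNA in the ratios below was not tested. A somatic cell type outside meiosis, the Leydig cluster of 46 and 380 cells, is given beside shares of cells. It is not taken to lack all 9 genes.

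The genes of break formation differed in when they were seen. Prdm9 (chromosome 17, 15543079 to 15564354, minus strand; mm10 for all positions) was a gene of the earliest meiotic cells. In wild type it stood at 4.70 CPM in spermatogonia, 63.3 in the intermediate sub-cluster, 80.6 in Stra8-high and 31.1 in Hormad1-high early spermatocytes. From the Piwil1-led late cluster to elongating spermatids it lay between 0.464 and 0.722 CPM, against 1.10 CPM in empty-like barcodes. The knockout library had 7.16, 32.5, 145 and 116 CPM in the first 4 stages and between 0.259 and 1.01 CPM in the later ones. In both libraries the gene was therefore read above free RNA in the intermediate and both early sub-clusters, with its largest value in Stra8-high cells.

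Spo11 (chromosome 2, 172977700 to 172993576, plus strand), which encodes the break-making enzyme, peaked later than Prdm9. Its wild type level was 4.70 CPM in spermatogonia and 2.75 in the intermediate sub-cluster. It was 25.2 CPM in Stra8-high and 50.6 in Hormad1-high early spermatocytes, from 5 and 13 UMIs. The Piwil1-led late cluster had 58.6 CPM (interval 53.8 to 63.7), the Aurka-led cluster 41.6, earlier round spermatids 26.8, Tnp2-high round spermatids 8.35 and elongating spermatids 3.11. The Hormad1-high and Piwil1-led values are not told apart by their intervals, while each later stage was lower than the one before. Knockout values followed the same order from the Piwil1-led cluster on, at 36.9, 25.4, 17.3, 3.62 and 2.85 CPM. Knockout early sub-clusters held only 1 UMI each. Empty-like barcodes carried 21.3 CPM in wild type and 17.6 CPM in the knockout, so earlier round spermatids were 1.26-fold (1.09 to 1.46) above free RNA in wild type and level with it in the knockout, at 0.981-fold (0.785 to 1.22), and the later spermatids lay below it. Counted in named germ cells, 37.26% of wild type Spo11 UMIs lay in the Aurka-led cluster and 23.95% in the Piwil1-led one, against 23.84% and 24.82% in the knockout. These shares also depend on how many cells of each stage a library holds.

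**Figure D1:**
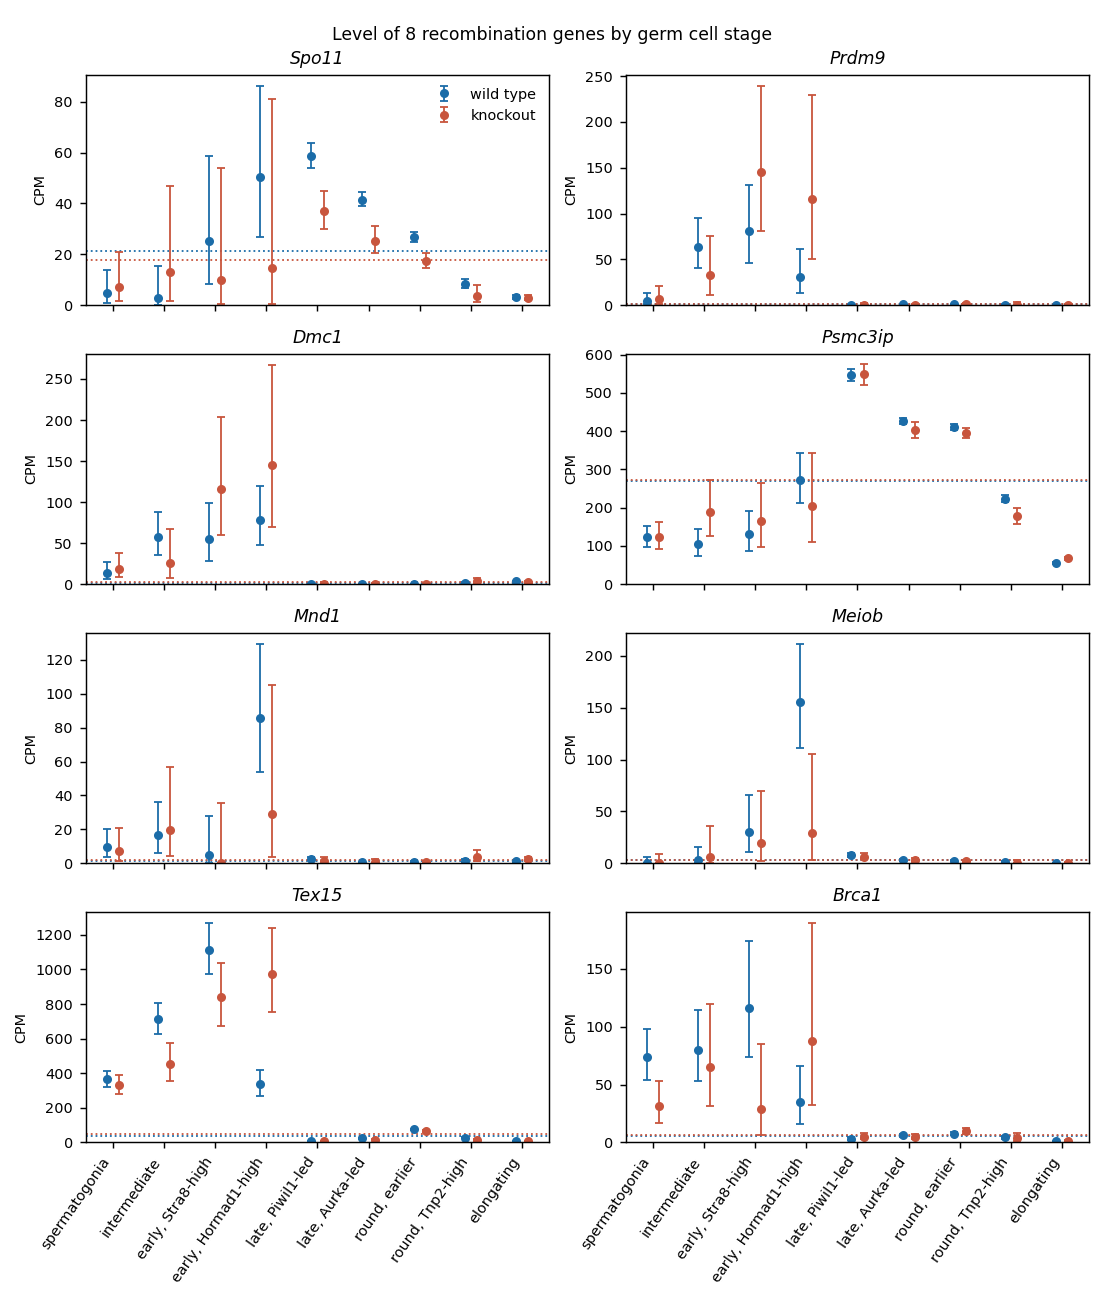
Level of 8 recombination genes (CPM, linear axes from 0) in 9 germ cell stages, wild type in blue and knockout in red, 1 library each; bars are exact Poisson 95% intervals and dotted lines the level in empty-like barcodes of the same library. Prdm9, Dmc1, Mnd1, Meiob, Tex15 and Brca1 are highest before the late spermatocytes, while Spo11 and Psmc3ip are highest in Piwil1-led late spermatocytes and fall from there on.

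Among the strand exchange genes, Dmc1 was read above free RNA from spermatogonia to the early spermatocytes. Dmc1 (chromosome 15, 79561497 to 79605109, minus strand), which encodes the meiotic recombinase, stood in wild type at 14.1 CPM in spermatogonia, 57.8 in the intermediate sub-cluster, 55.4 in Stra8-high and 77.8 in Hormad1-high early spermatocytes. The 3 stages from the intermediate on are not told apart by their intervals. The knockout had 19.1, 26.0, 116 and 145 CPM in the same 4 stages. In late spermatocytes and earlier round spermatids Dmc1 was at 0.724 CPM or less in both libraries, under the 2.04 and 3.15 CPM of empty-like barcodes. In elongating spermatids a low level returned in wild type, 3.39 CPM from 95 UMIs in 83 of 1683 cells, which was 1.66 times (1.07 to 2.68) that of empty-like barcodes. The knockout value there was 2.43 CPM from 29 UMIs. Over the 20 points made by 10 clusters and 2 libraries, the Pearson correlation of log2(CPM + 1) between Prdm9 and Dmc1 was 0.943, the second highest among the 36 pairs after Tex15 with Brca1 at 0.947. With its partners in strand exchange the correlation of Dmc1 was 0.586 for Mnd1 and −0.452 for Psmc3ip. The points share libraries and free RNA, and the correlation is given as a description.

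Mnd1 (chromosome 3, 84087933 to 84155786, minus strand) and Psmc3ip (chromosome 11, 101091823 to 101095436, minus strand) encode a pair that works as 1 complex with DMC1, yet their transcripts were found at different stages. Mnd1 was a gene of Hormad1-high early spermatocytes: the wild type level there was 85.5 CPM from 22 UMIs in 11 of 33 cells. It was 9.39 CPM in spermatogonia, 16.5 in the intermediate sub-cluster, 5.04 in Stra8-high early spermatocytes, 2.67 in Piwil1-led late spermatocytes and between 0.584 and 1.51 in the later stages. Knockout Hormad1-high cells had 29.1 CPM, from 2 UMIs in 1 cell, and knockout Stra8-high cells had none among 21 cells, where 3 UMIs would already be a level of 29.1 CPM.

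Psmc3ip was in contrast a gene of late spermatocytes. Wild type had 546 CPM in the Piwil1-led and 426 in the Aurka-led late cluster, 411 in earlier and 223 in Tnp2-high round spermatids and 56.0 in elongating spermatids. The knockout had 548, 403, 395, 178 and 67.4 CPM. Before the late stages the level was between 105 and 272 CPM in wild type and between 124 and 204 CPM in the knockout, while empty-like barcodes held 270 and 273 CPM. None of these earlier stages lay above free RNA beyond counting error in either library. The 3′ part of Psmc3ip overlaps Mlx on the other strand over 385 of its 1818 exon bases, and Mlx had 311 and 363 UMIs against 35238 and 25147 for Psmc3ip over all kept barcodes.

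The sequences before the starts of Prdm9, Dmc1 and Mnd1 are shown because these are the 3 genes of early meiotic cells with a RefSeq entry whose ratio was called in early spermatocytes: Prdm9 and Dmc1 were called higher and Mnd1 lower. Each is the 250 bases before the start of a promoter entry (RefSeq, GRCm38.p6, minus strand, written 5′ to 3′ in the direction of the gene). Prdm9 had 2 entries, and the one nearest the annotated gene start was used. The RefSeq gene bounds reach further, to 15564374, 79605159 and 84155798, so the last bases of each window lie inside those bounds. Of the 9 genes, 6 had an entry. Capitals mark matches to 6 short motifs searched on both strands: TCCCGCC (E2F type), CACGTG (E-box), TGACGT (first part of a cAMP response element), AACTG (MYB type), CCAAT and TATAAA.
Prdm9, chr17:15564355-15564604: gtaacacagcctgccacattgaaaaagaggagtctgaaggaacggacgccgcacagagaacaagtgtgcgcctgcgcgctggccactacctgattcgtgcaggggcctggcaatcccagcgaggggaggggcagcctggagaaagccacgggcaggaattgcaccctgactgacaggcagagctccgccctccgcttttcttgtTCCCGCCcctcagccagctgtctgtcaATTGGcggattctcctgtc
Dmc1, chr15:79605110-79605359: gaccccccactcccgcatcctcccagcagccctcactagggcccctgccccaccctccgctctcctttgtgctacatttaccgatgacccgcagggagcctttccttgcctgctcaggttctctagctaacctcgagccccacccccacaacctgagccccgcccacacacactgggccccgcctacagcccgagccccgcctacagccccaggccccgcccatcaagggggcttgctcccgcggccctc
Mnd1, chr3:84155787-84156036: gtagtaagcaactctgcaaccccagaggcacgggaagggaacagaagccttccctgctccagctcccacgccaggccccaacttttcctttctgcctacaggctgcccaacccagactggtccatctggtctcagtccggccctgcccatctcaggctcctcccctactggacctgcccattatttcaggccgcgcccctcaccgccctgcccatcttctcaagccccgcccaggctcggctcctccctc
Prdm9 has 1 match to TCCCGCC, 46 to 40 bases before the start, and 1 to CCAAT on the other strand, 19 to 15 bases before it. Of all 32851 windows of the same length 9.75% hold TCCCGCC and 33.8% hold CCAAT, so neither match is rare. The Dmc1 and Mnd1 windows hold none of the 6 motifs, which says only that these letters are not in these windows. The motifs not found in any of the 3 windows occur in 6.02% (CACGTG), 6.47% (TGACGT), 39.1% (AACTG) and 12.4% (TATAAA) of all windows. All 3 windows are richer in G and C than the median window (52.4%): Prdm9 has 60.8%, Mnd1 63.6% and Dmc1 68.8%.

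Of the genes of strand processing and repair, Meiob, Tex15 and Brca1 also had their highest CPM before the late spermatocytes. Counted in wild type named germ cells, 49.66% of Tex15 and 32.47% of Brca1 UMIs lay in earlier round spermatids. For Meiob 27.86% lay in the Piwil1-led late cluster and 15.27% in Hormad1-high early spermatocytes. These shares also depend on how many cells of each stage the library holds. Meiob (chromosome 17, 24804289 to 24839788, plus strand), which encodes a single-strand binding protein of meiosis, had no UMI in spermatogonia of either library. Wild type had 2.75 CPM in the intermediate sub-cluster, 30.2 in Stra8-high and 156 in Hormad1-high early spermatocytes, then 7.80 in the Piwil1-led cluster, 3.07 in the Aurka-led cluster and between 0.357 and 2.33 in spermatids. The knockout had 6.51, 19.4, 29.1, 6.51 and 2.85 CPM in the same order up to the Aurka-led cluster. The Piwil1-led cluster was still above the empty-like level of 3.06 and 3.15 CPM in both libraries, 2.55-fold (1.71 to 3.86) in wild type and 2.07-fold (1.11 to 3.72) in the knockout.

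Tex15 (chromosome 8, 33516738 to 33585582, plus strand) was seen before meiosis as well. Wild type had 365 CPM in spermatogonia, 713 in the intermediate sub-cluster, 1113 in Stra8-high and 338 in Hormad1-high early spermatocytes, and only 5.45 in the Piwil1-led cluster. A second, lower rise followed: 23.6 CPM in the Aurka-led cluster, 76.0 in earlier round spermatids and 26.8 in Tnp2-high ones, against 37.5 CPM in empty-like barcodes. The knockout had 330, 455, 843 and 974 CPM up to the Hormad1-high cells, then 5.43, 15.8, 66.5 and 15.1 CPM, against 49.5 CPM in empty-like barcodes. Among the late and spermatid stages of full depth the earlier round cluster alone passed the empty-like level, 2.03-fold (1.83 to 2.25) in wild type and 1.34-fold (1.19 to 1.52) in the knockout.

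Brca1 (chromosome 11, 101488764 to 101551955, minus strand) ran beside Tex15. Wild type had 73.6 CPM in spermatogonia, 79.8 in the intermediate sub-cluster, 116 in Stra8-high and 35.0 in Hormad1-high early spermatocytes, and between 1.11 and 7.50 CPM later. The knockout had 31.0, 65.1, 29.1 and 87.3 CPM, then between 1.004 and 9.59. The empty-like level was 5.41 and 6.22 CPM, and of the late and spermatid stages of full depth the earlier round cluster alone passed it, 1.39-fold (1.05 to 1.85) in wild type and 1.54-fold (1.10 to 2.16) in the knockout.

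Spata22 (chromosome 11, 73329741 to 73346044, plus strand), the partner of Meiob, could not be read. Over all kept barcodes it had 10 wild type and 12 knockout UMIs, and none in the early spermatocytes of either library, where Meiob was highest. A second gene model on the same strand, Gm49340, shares 1025 of its 1274 exon bases and had 0 UMIs in both libraries. Reads that fit 2 genes may not be counted for either, so the level of Spata22 is uncertain.

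Knockout and wild type were compared class by class. A gene was called when the ratio was at least 1.5-fold and its exact interval left out 1, among genes with at least 20 UMIs over both libraries. By this rule 8 of the 33 gene measurements in the 5 classes were called, 3 higher and 5 lower in the knockout. Over all measured genes, between 3.94% and 12.2% were called higher and between 0.574% and 5.45% lower, depending on the class. The 33 measurements repeat the same genes across classes, so they are not independent.

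In early spermatocytes the calls went both ways. The knockout was higher in Prdm9 and Dmc1 and lower in Mnd1 and Meiob, so 2 of 8 measured genes were higher and 2 lower. Over all 5672 measured genes 4.90% were called higher and 5.45% lower in this class. For Prdm9 the wild type cells had 24 UMIs (52.7 CPM) and the knockout cells 23 UMIs (134 CPM), a ratio of 2.54 (1.37 to 4.70). Dmc1 had 31 UMIs (68.0 CPM) and 22 UMIs (128 CPM), a ratio of 1.88 (1.04 to 3.36). Meiob had 46 UMIs (101 CPM) and 4 UMIs (23.3 CPM), a ratio of 0.231 (0.0603 to 0.631), and Mnd1 had 23 UMIs (50.5 CPM) and 2 UMIs (11.6 CPM), a ratio of 0.231 (0.0263 to 0.933). The other 4 were not called. Tex15 had a ratio of 1.33 (1.09 to 1.61), Psmc3ip of 0.856 (0.552 to 1.30) and Brca1 of 0.746 (0.313 to 1.60), and Spo11, with 18 and 2 UMIs, of 0.295 (0.0331 to 1.23).

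For Dmc1 and Meiob the share of early spermatocytes with a UMI moved the same way as the level, which counts the same UMIs. For Dmc1 it was 26.0% (19 of 73 cells, Clopper-Pearson 16.5 to 37.6) in wild type and 51.6% (16 of 31, 33.1 to 69.9) in the knockout, at median depths of 5052 and 4951 UMIs. For Meiob it was 30.1% (22 of 73, 19.9 to 42.0) and 12.9% (4 of 31, 3.63 to 29.8). With each cell thinned to 2000 UMIs the Dmc1 shares were 12.9% and 33.3% and the Meiob shares 21.4% and 3.33%. In the Leydig cluster Dmc1 was seen in 0 of 46 and 7 of 380 cells and Meiob in 0 of 46 and 3 of 380 cells, at median depths of 7064.5 and 6079 UMIs. The intervals of the 2 libraries overlap for both genes.

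Genes that mark progress through prophase differed between the libraries inside the same sub-clusters. In Hormad1-high cells the knockout had less Hormad1 (867 CPM in wild type, 436 in the knockout), a gene of the chromosome axis, less Sycp1 (1866 and 1222), a gene of the synaptonemal complex, and more Stra8 (190.5 and 407), the switch gene of meiotic entry. Sycp3, another axis gene, was at 2352 and 1556 CPM. Of the 10 measured early spermatocyte markers there 2 were lower and none higher, and of 2 measured spermatogonia markers 1 was higher. In the same cells Meiob was at 156 and 29.1 CPM, Mnd1 at 85.5 and 29.1, Prdm9 at 31.1 and 116, and Tex15 at 338 and 974. In Stra8-high cells, where Stra8 was at 776 and 737 CPM and Hormad1 at 201.5 and 136, Prdm9 was at 80.6 and 145 CPM, Dmc1 at 55.4 and 116, Meiob at 30.2 and 19.4, Tex15 at 1113 and 843 and Brca1 at 116 and 29.1. Taken alone, a split chosen after seeing the data, the Hormad1-high cells passed the fold and interval limits for Prdm9 (log2 1.90), Meiob (−2.42) and Tex15 (1.53). The Stra8-high cells passed them for Brca1 (−1.99). Both sub-clusters have fewer than the 30 knockout cells asked of a class. Prdm9 had 8 and 8 UMIs in the Hormad1-high cells, under the limit of 20 UMIs over both libraries. Prdm9 and Dmc1 had larger values in both knockout sub-clusters, while the values of Tex15 and Brca1 lay on opposite sides of the wild type ones. The part of a different mix of prophase steps in the 4 calls was not tested. These calls rest on 31 knockout cells, and the grouping of cells decides several of them: with the intermediate sub-cluster added, the log2 ratio of Dmc1 was 0.33 and that of Prdm9 0.58 with intervals that include 0. With a coarser clustering that of Meiob was 0.71, from fewer than the 20 UMIs asked of a measured gene. With cells named one by one, which gave another set of 331 wild type and 495 knockout early spermatocytes, that of Dmc1 was −0.21. With TMM scaling it was 0.79. Both intervals include 0. Without the 1 cell that held most of its UMIs Mnd1 was at −1.84 and no longer called.

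**Figure D2:**
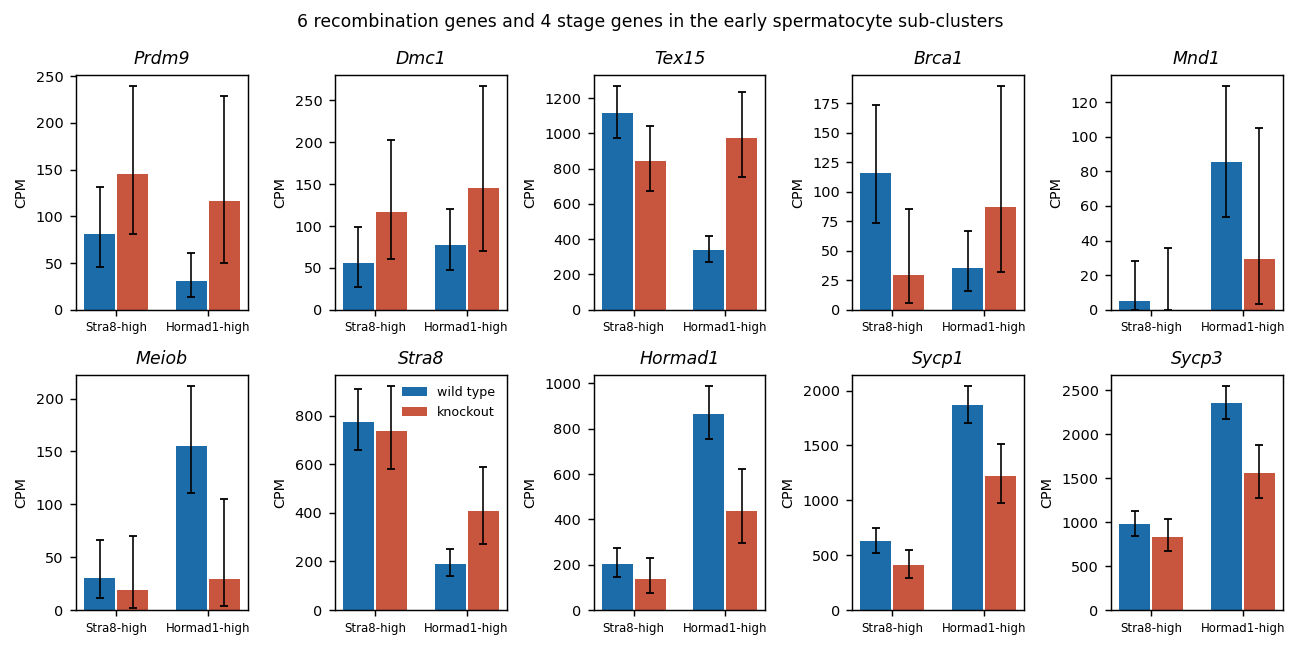
Levels (CPM, from 0) of 6 recombination genes and 4 stage genes in the Stra8-high (40 wild type and 21 knockout cells) and Hormad1-high (33 and 10 cells) early sub-clusters, with exact Poisson 95% intervals. Knockout bars are higher for Prdm9 and Dmc1 in both sub-clusters and lower for Meiob, and in Hormad1-high cells Stra8 is higher and Hormad1 and Sycp1 are lower in the knockout.

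Few of these transcripts were seen at once in single early cells. Over the 33 wild type Hormad1-high cells Prdm9 had 8 UMIs, Dmc1 20, Mnd1 22 and Meiob 40. At such counts a cell without a UMI of a gene may still have held its transcript. Among Hormad1-high cells 15 of 33 wild type and 6 of 10 knockout cells had UMIs of at least 2 of Prdm9, Dmc1, Mnd1 and Meiob, and no cell had all 4. Meiob and Mnd1 were seen together in 8 of 33 wild type and 0 of 10 knockout cells, and Prdm9 and Dmc1 in 3 of 33 and 5 of 10. The 10 knockout cells held only 2 Meiob and 2 Mnd1 UMIs, which left little room for that pair. The pair counts come from the same UMIs as the levels of the single genes and are given as a description. In Stra8-high cells Prdm9 and Dmc1 were together in 3 of 40 wild type and 4 of 21 knockout cells, and Meiob and Mnd1 in none.

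In spermatogonia Brca1 was lower in the knockout and no measured gene of the 9 was higher. It had 47 UMIs in 33 of 73 wild type cells and 13 UMIs in 7 of 52 knockout cells, 73.6 and 31.0 CPM, a ratio of 0.422 (0.209 to 0.793). In the Leydig cluster 1 of 46 and 17 of 380 cells had a Brca1 UMI. The share of cells was 45.2% and 13.5% at median depths of 8265 and 7586.5 UMIs, and 11.4% and 8% after thinning to 2000 UMIs. The other measured genes were Tex15, at 365 and 330 CPM with a ratio of 0.903 (0.727 to 1.12) but a log2 ratio of −0.73 and a call when only barcodes of at least 2000 UMIs and 1000 genes were used, and Psmc3ip, at or under free RNA in both libraries. Thus 1 of 3 measured genes was lower, where 3.75% of all 7484 measured genes were lower and 3.94% higher. The spermatogonia markers summed to 2320 CPM in the wild type class and 1843 in the knockout one, with 3 of 13 measured markers lower. The class pools a sub-cluster of 28 wild type and 36 knockout cells with another of 45 and 16 cells. Brca1 was at 46.4 and 27.9 CPM in the first (10 and 8 UMIs). In the second it was at 87.5 and 37.9 CPM (37 and 5 UMIs). The part of the marker levels and of this mix in the Brca1 value was not tested.

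In late spermatocytes, the best covered meiotic class, Spo11 was lower in the knockout. It had 1403 UMIs in 691 of 1224 wild type cells and 200 UMIs in 127 of 367 knockout cells, 46.9 CPM (44.5 to 49.4) and 30.2 CPM (26.2 to 34.7). The ratio was 0.644 (0.553 to 0.748). The share of cells with a UMI was 56.45% and 34.6% at median depths of 19147 and 14505 UMIs, and 8.88% and 5.29% after thinning to 2000 UMIs, against 4.35% and 2.12% of thinned Leydig cells. Each late cluster gave the same direction, with 58.6 and 36.9 CPM in the Piwil1-led and 41.6 and 25.4 CPM in the Aurka-led cluster. The free RNA level was also lower in the knockout, 17.6 against 21.3 CPM. A correction took off, for each cell, the mean counts of 1 barcode from the lowest decile of depth. It removed 23.5 of 1403 and 8.06 of 200 Spo11 UMIs. The log2 ratio was then −0.62 (−0.85 to −0.40) against −0.63 as reported. This takes off a smaller part than the empty-like levels would, and taking off those levels was not tested. The 12 late spermatocyte markers summed to 7443 and 7155 CPM in the same cells, and none of them was called. Single markers went both ways: Piwil1 was at 320 CPM in wild type and 423 CPM in the knockout, and Aurka at 345.5 and 298 CPM.

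Tex15 was also lower in knockout late spermatocytes, at 17.9 and 11.5 CPM (536 and 76 UMIs), a ratio of 0.641 (0.497 to 0.816). Both values lie under the empty-like levels of 37.5 and 49.5 CPM. In the Piwil1-led cluster alone the libraries had 5.45 and 5.43 CPM and in the Aurka-led one 23.6 and 15.8 CPM, and neither was called alone. With the same lowest-decile counts taken off per cell, 40.5 of 536 and 25.8 of 76 UMIs, the log2 ratio was −1.08. With equal weight for both clusters it was −0.45, short of the 1.5-fold limit. Psmc3ip stood at 464 CPM in wild type cells and 463 CPM in knockout cells, a ratio of 0.999 (0.960 to 1.04) from 13879 and 3067 UMIs, the closest bound on any of the 9 genes in this class. Meiob, Mnd1, Brca1 and Prdm9 were measured and not called. Thus 2 of 7 measured genes were lower and none higher, where 2.82% of all 14340 measured genes were lower and 5.06% higher.

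**Figure D3:**
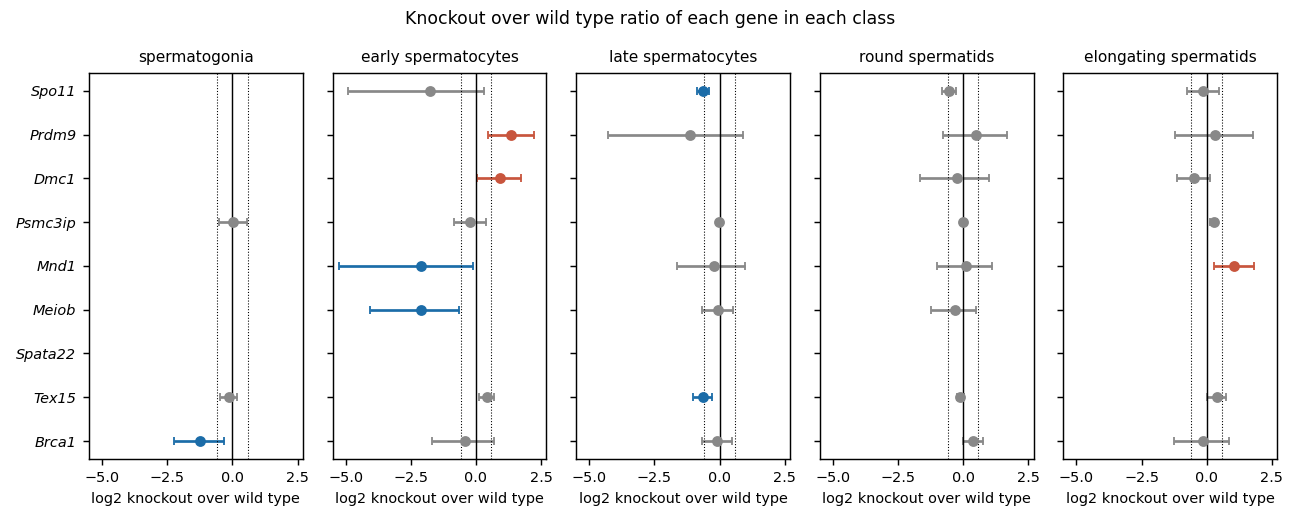
Log2 ratio of knockout over wild type with its exact 95% interval for each gene with at least 20 UMIs in a class; red is called higher, blue called lower, grey not called, and dotted lines mark 1.5-fold. Spata22 was measured in no class, the early calls have wide intervals, and those of Spo11, Psmc3ip and Tex15 in late spermatocytes are narrow.

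Spermatids gave 1 call. In round spermatids 8 genes were measured and none was called, where 4.20% of all 15139 measured genes were higher and 1.97% lower. Spo11 had a ratio of 0.692 (0.575 to 0.829) there, just inside the 1.5-fold limit, with 26.8 and 17.3 CPM in the earlier and 8.35 and 3.62 CPM in the Tnp2-high cluster. Psmc3ip again had nearly the same level, 357.1 and 357.0 CPM. In elongating spermatids Mnd1 was at 1.18 and 2.43 CPM (33 and 29 UMIs), a ratio of 2.06 (1.21 to 3.50), and 6 other genes were measured and not called. In this class 12.2% of all 12536 measured genes were higher and 0.574% lower, and the median gene was higher by 0.23 on the log2 scale. The knockout Mnd1 level, 2.43 CPM, is close to the 1.79 CPM of empty-like knockout barcodes. With TMM scaling, which moves this class by −0.28 on the log2 scale, the log2 ratio was 0.77 with an interval of −0.01 to 1.53.

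**Figure D4:**
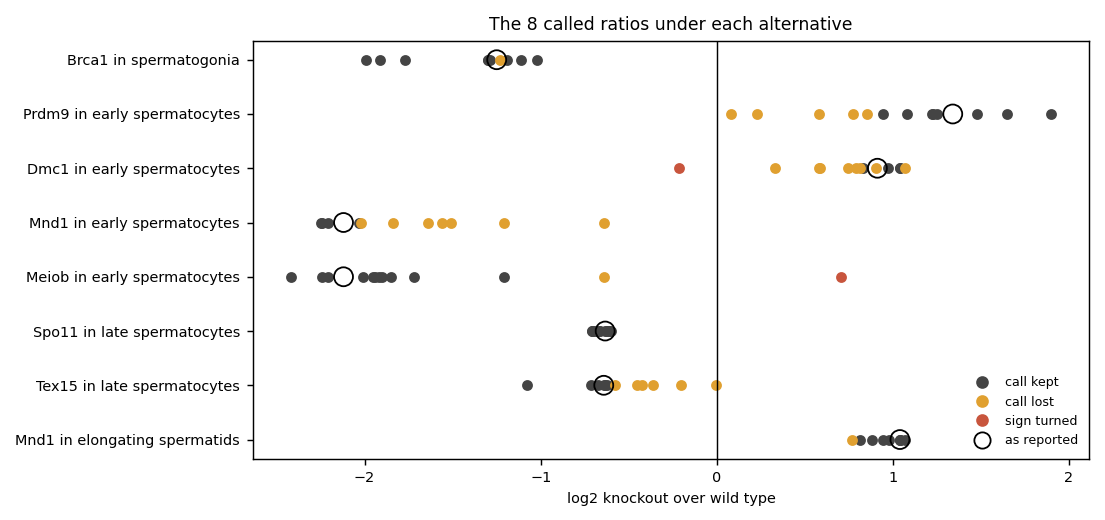
The 8 called log2 ratios (open circles) and the same ratios under each alternative processing, coloured by whether the call was kept, lost or turned in sign. Spo11 in late spermatocytes stays between −0.71 and −0.60, while the early spermatocyte ratios spread widely, with Dmc1 and Meiob crossing 0 once each. The Meiob ratio that crosses 0 rests on fewer than 20 UMIs.

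The rest of the pathway was followed through 68 other recombination genes, in 4 lists. In early spermatocytes 40 of them were measured, 3 higher and 1 lower, where 4.90% and 5.45% of all measured genes were higher and lower. The median log2 ratio was 0.06 against −0.01 over all genes. Counts this small do not set the list apart from the background, here or in the classes that follow. The higher ones were Zcwpw1, a reader of the histone marks that PRDM9 writes, at 410 and 785 CPM; Atm, the kinase that senses breaks, at 90.0 and 180 CPM; and Rad51c, a gene of homologous recombination repair, at 28.5 and 81.4 CPM. The lower one was Rad51ap2, at 186.5 and 93.1 CPM. Of the break formation genes 1 of 7 measured was higher, of resection and break sensing 1 of 9, and of strand exchange 1 of 17 was higher and 1 lower. None of the 7 measured crossover genes was called.

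In spermatogonia 40 of the 68 were measured, 1 higher and 4 lower, against 3.94% and 3.75% of all measured genes, with a median log2 ratio of −0.16 against 0.01. The lower ones were Rpa3, a subunit of the single-strand binding complex, at 45.4 and 11.9 CPM, Mre11a, a break-processing nuclease, at 54.8 and 23.9 CPM, and the helicase gene Brip1 and the topoisomerase gene Top3a, both at 29.8 and 9.55 CPM. Brip1 encodes a helicase that binds BRCA1. In late spermatocytes 66 were measured, 3 higher and 2 lower, against 5.06% and 2.82% of all measured genes, with a median log2 ratio of 0.08 against 0.03. Rad54l was at 2.41 and 4.99 CPM, Trip13 at 4.21 and 6.80 and Gm960 (Top6bl, the partner of SPO11 in the break-making complex) at 0.903 and 1.96. Rnf212b was at 2.51 and 1.21 CPM, and Rad51ap2 had 23 UMIs in wild type and none in the knockout, where 3 UMIs would be a level of 0.453 CPM. In round spermatids 65 were measured, with Rad9a (2.04 and 3.45 CPM) and Tex11 (1.75 and 3.03 CPM) higher and none lower, against 4.20% and 1.97% of all measured genes. In elongating spermatids 42 were measured, with Rnf212, Rec114, Top3a and Cntd1 higher and none lower, against 12.2% and 0.574% of all measured genes, and a median log2 ratio of 0.22 against 0.23 over all genes.

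The genes whose stage pattern was most like each of the 9 were found over the same 20 points by Pearson correlation of log2(CPM + 1). For Prdm9 they were Kdm6a (0.981), Prss50 (0.978) and Trank1 (0.972), and for Dmc1 Mdk (0.970), Pdlim5 (0.954) and Pak1 (0.947). Tex15 was most like Smc3 (0.984), Zmym3 (0.983) and Tipin (0.976), and Brca1 like Taf7l (0.968), Las1l (0.968) and Cisd2 (0.966). Psmc3ip was most like Arl3 (0.970), Cox7b2 (0.965) and Hspa2 (0.961), a chaperone gene on the late spermatocyte list. Meiob was most like Ly6k (0.956), Ergic3 (0.883) and Sapcd1 (0.862), and Spo11 like Slc6a16 (0.919), Pfn2 (0.882) and Daw1 (0.879). Mnd1 was most like Homer3 (0.864), Tmem30a (0.841) and Bcl9 (0.831). None of these genes is among the 68 other recombination genes, and values for Spata22 rest on too few UMIs to be read. Some of the named genes also have few UMIs over the 20 points, such as Kdm6a and Homer3 with 76 and Sapcd1 with 80. Their correlations rest on small counts.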

How the data were processed

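The values deposited are raw counts of UMIs by gene and barcode, 1 10x library per genotype, made by the authors with Cell Ranger 2.2.0, STAR and mm10, per the submitters' processing notes; the matrix headers name software version 3.1.0. The sources used here do not say how cells were called. Barcodes of 500 or more UMIs, 250 or more genes and no more than 20% mitochondrial UMIs were kept. Both libraries were clustered together (scanpy 1.11.5, leidenalg 0.10.2, 2000 variable genes, 30 components, 15 neighbours, resolution 1) without the recombination genes, and named by markers; early cells were sub-clustered. Doublets were not removed. Counts were summed per library and class, with exact Poisson, Clopper-Pearson and conditional binomial 95% intervals (scipy 1.17.1). Ratios were called at 1.5-fold, from 20 UMIs and 30 cells per library. TMM factors came from edgeR 4.0.16. Scripts were tested on simulated data. Besides the 9 genes, the text names called recombination genes (at most 4 each way per class) and the 3 genes most like each of the 9. A called gene of the recombination list is not reported here. The genes, lists and comparisons were chosen with earlier results of these data known.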

Additional observations from a re-analysis of the deposited data

Results flagged for a closer look

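Mnd1 was called in opposite directions in 2 classes: the log2 ratio of knockout over wild type was −2.12 in early spermatocytes (23 and 2 UMIs) and 1.04 in elongating spermatids (33 and 29 UMIs). The difference between the classes was not tested.

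A cluster of low-UMI round spermatids (689 wild type and 691 knockout barcodes, median depths 1724 and 1975 UMIs) was outside the comparisons and held more Brca1 and Tex15 than empty-like barcodes. Brca1 stood at 37.75 CPM in wild type and 32.8 CPM in the knockout, 6.98-fold (4.78 to 10.1) and 5.28-fold (3.62 to 7.66) the empty-like level. Tex15 stood at 95.4 and 108 CPM, 2.55-fold (2.09 to 3.09) and 2.19-fold (1.83 to 2.60) that level.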

How the results depend on the processing

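Under alternative processing 319 ratios of the 9 genes stayed on their side of the limit for a call, of which 44, none of them a call, changed sign. A further 14 newly passed the limit, 29 lost it, and 3 were reversed. Spo11 in late spermatocytes kept its call in 12 of 12 alternatives, at log2 ratios of −0.71 to −0.60. The split of late and early clusters, and the adding of the intermediate sub-cluster or the low-UMI cluster were chosen after seeing the data. Alternatives needed 10 cells per library in place of 30, and some of their ratios rest on fewer than 20 UMIs. No paired analysis was possible because each genotype has 1 library, and none could be left out. The cause of each change below was not tested.

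With cells named one by one in place of clusters, Dmc1 in early spermatocytes turned to −0.21, Mnd1 in late spermatocytes turned to 1.19, and the calls were lost for Prdm9 (0.081) and Mnd1 (−0.64) in early and Tex15 (−0.21) in late spermatocytes. That naming gave other sets of barcodes. Spermatogonia were 159 wild type and 321 knockout barcodes, against 73 and 52 by clusters, and early spermatocytes 331 and 495, against 73 and 31. Late spermatocytes were 1393 and 732, against 1224 and 367. At resolution 0.5 Meiob in early spermatocytes turned to 0.71, from 7 and 5 UMIs, and Prdm9 (0.23) and Dmc1 (0.74) lost their calls. At resolution 2 the calls of Brca1 in spermatogonia (−1.23), Prdm9 (0.77) and Dmc1 (0.58) in early spermatocytes and Tex15 in late spermatocytes (−0.36) were lost. With the recombination genes among the variable genes Dmc1 (0.58) and Mnd1 (−1.51) lost theirs. TMM and median-of-ratios scaling ended the call of Dmc1 (0.79 and 0.81), and TMM that of Mnd1 in elongating spermatids (0.77).

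Calls were gained as well. Tex15 in spermatogonia was called lower with stricter barcodes (−0.73), with the list among the variable genes (−0.77) and with cells named one by one (−1.23), and Tex15 in elongating spermatids higher with stricter barcodes (0.64) and at resolution 2 (0.59). Brca1 was called in round spermatids with stricter barcodes (0.72) and with the low-UMI cluster (0.61), and in early spermatocytes at resolution 0.5 (−1.20). Spo11 was called in round spermatids with clusters at equal weight (−0.75) and in early spermatocytes with cells named one by one (−0.82), and Dmc1 in elongating spermatids with TMM (−0.76) and median-of-ratios scaling (−0.71). Hormad1-high cells alone gave a call for Tex15 (1.53) and Stra8-high cells alone one for Brca1 (−1.99).

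In early spermatocytes Mnd1 was no longer called with the counts of 1 lowest-decile barcode taken off per cell (−2.02) or with clusters at equal weight (−1.64). Nor was it called without the cell holding most of its UMIs (−1.84), with the intermediate sub-cluster (−1.21) or in Hormad1-high cells alone (−1.56). The intermediate sub-cluster also ended the calls of Prdm9 (0.58) and Dmc1 (0.33). Stra8-high cells alone gave no call for Prdm9 (0.85), Dmc1 (1.07) or Meiob (−0.64), and Hormad1-high cells alone none for Dmc1 (0.90). Tex15 in late spermatocytes was not called at 2000 UMIs and 1000 genes per barcode (−0.42), at equal weight (−0.45), or in the Piwil1-led (−0.0047) or Aurka-led cluster alone (−0.58).

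Among the 68 other recombination genes, small counts moved often. Counts with cells named one by one come from the other sets of barcodes described above. In spermatogonia the 1 higher gene became 0 at resolution 2, with stricter barcodes, either scaling, or cells named one by one, and the 4 lower ones became 1 at resolution 2, 2 with stricter barcodes or with the list among the variable genes, 0 at 50 UMIs per gene and 32 with cells named one by one. In early spermatocytes the 3 higher ones became 5 with stricter barcodes or in Hormad1-high cells, 1 with the intermediate sub-cluster and 0 in Stra8-high cells or with cells named one by one, and the 1 lower one became 2 at resolution 2 or with either scaling, 0 with stricter barcodes, the list included or Hormad1-high cells alone, and 20 with cells named one by one. In late spermatocytes the 3 higher ones became 1 in either cluster alone and 7 with cells named one by one, and the 2 lower ones became 1 at 50 UMIs, with stricter barcodes, at resolution 2, with the list included or in Aurka-led cells, and 0 at resolution 0.5 or with cells named one by one. In round spermatids the 2 higher ones became 4 at resolution 0.5 or 2, 6 with the low-UMI cluster and 12 with cells named one by one, and the 0 lower ones became 1 at resolution 0.5 or 2 and with cells named one by one. In elongating spermatids the 4 higher ones became 2 at 50 UMIs and 9 with cells named one by one, and the 0 lower ones became 2 with TMM.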
